A study of Homo sapiens with 54 samples.

Results

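DLD-1 is an established human colorectal adenocarcinoma cell line, and the comparison described here set 5-fluorouracil (5-FU)-resistant DLD-1 cells against the sensitive cells they came from, with no 5-FU added during the treatment. The members were chosen by the cell line, sensitivity and treatment labels: 3 libraries of resistant cells and 3 of sensitive cells, all treated with 10 µM uracil for 24 h, which makes 6 of the 54 RNA-seq libraries of the series. The series also holds HCT-116 and HT-29 cells, and treatments with 10 µM 5-FU for 24 h, alone or followed by X-ray irradiation. Resistance had been built up over 8 months in rising 5-FU, and the resistant cells were kept in medium with 50 µM 5-FU. How long they had been without the drug before the uracil treatment is not given in the sources used here. As far as the labels tell, the resistant cells are 1 selected population, so the 3 libraries of a group are triplicates of the same cells and the p-values measure the spread between such triplicates. The comparison asks which genes differ between resistant and sensitive cells when no 5-FU is added during the treatment.

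5-FU is a uracil analogue that cells convert into fluorinated nucleotides. A deoxynucleotide form blocks thymidylate synthase, the enzyme that makes thymidylate for DNA, and others are built into RNA and DNA. The enzymes that activate or degrade 5-FU, the transporters that carry it, thymidylate synthase itself, cell death genes and the cell adhesion programme are the gene groups in which acquired resistance is usually looked for. Uracil is the natural base and served as the control treatment.

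Total counts ran from 45023691 to 57376864 in 5 of the 6 libraries, and sensitive replicate 2 held 218518001. Levels are given as TPM, the abundance of a gene's transcripts scaled for their length and for depth, which can be compared between genes. Fold changes come from the counts as log2(resistant / sensitive). The SE given with them was derived from the test statistic of the fit. It can be too small for genes with almost no counts in 1 group. The epithelial markers fixed for these cells were all expressed, with a summed level of 6776 to 7077 TPM in sensitive and 8422 to 10546 TPM in resistant libraries, and none of the 9 was called. The fibroblast markers summed to 1.33 to 2.13 TPM and 2.07 to 4.17 TPM, with 3 of 9 at or under 3 counts in every library (COL3A1, LUM and THY1), and the leukocyte markers to 2.12 to 8.99 TPM and 1.89 to 5.73 TPM, with 4 of 9 there (CD3E, CD3D, MS4A1 and TYROBP). The 7 endothelial markers summed to 3.00 to 3.32 TPM and 2.45 to 3.34 TPM. The DLD-1 markers were 18 genes that set sensitive DLD-1 cells apart from the other lines in the 5-FU libraries. All 18 reached 1 TPM in every sensitive library and 16 in every resistant library. None of the 50 HCT-116 or 24 HT-29 marker genes reached it in every library of either group. Some values did exceed it. The highest for an HCT-116 marker was 0.176 TPM in sensitive and 4.84 TPM in resistant cells. The highest for an HT-29 marker was 2.62 TPM, in sensitive cells. The source of this RNA was not tested. Resistant replicate 1 stood apart from the other resistant libraries: 124 of 11638 well expressed genes lay over 0.5 log2 units from the group mean in it, against 17 and 14 in the others, and 3 to 10 of 11552 in the sensitive libraries.

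Of 21814 genes tested, 438 were lower in resistant cells (2.01%) and 805 were higher (3.69%), where a call needed a change of 2-fold or more and an adjusted p not above 0.01 (edgeR's quasi-likelihood test, Benjamini-Hochberg adjustment). A gene that met both limits is said to be called lower or higher. The adjusted p alone was met by 2515 genes that were lower (11.5%) and 2847 that were higher (13.1%), and the median log2 fold change over all genes tested was -0.01. At a change of at least 4-fold the counts were 181 lower and 204 higher. The medians of the 23 nuclear chromosomes lay between -0.04 and 0.06. Most genes thus lay close to equal expression, with a limited number far from it on both sides. Without resistant replicate 1 the counts were 489 lower and 679 higher. In bulk RNA, fewer cells that express a gene and less of its RNA per cell cannot be told apart.

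**Figure D1:**
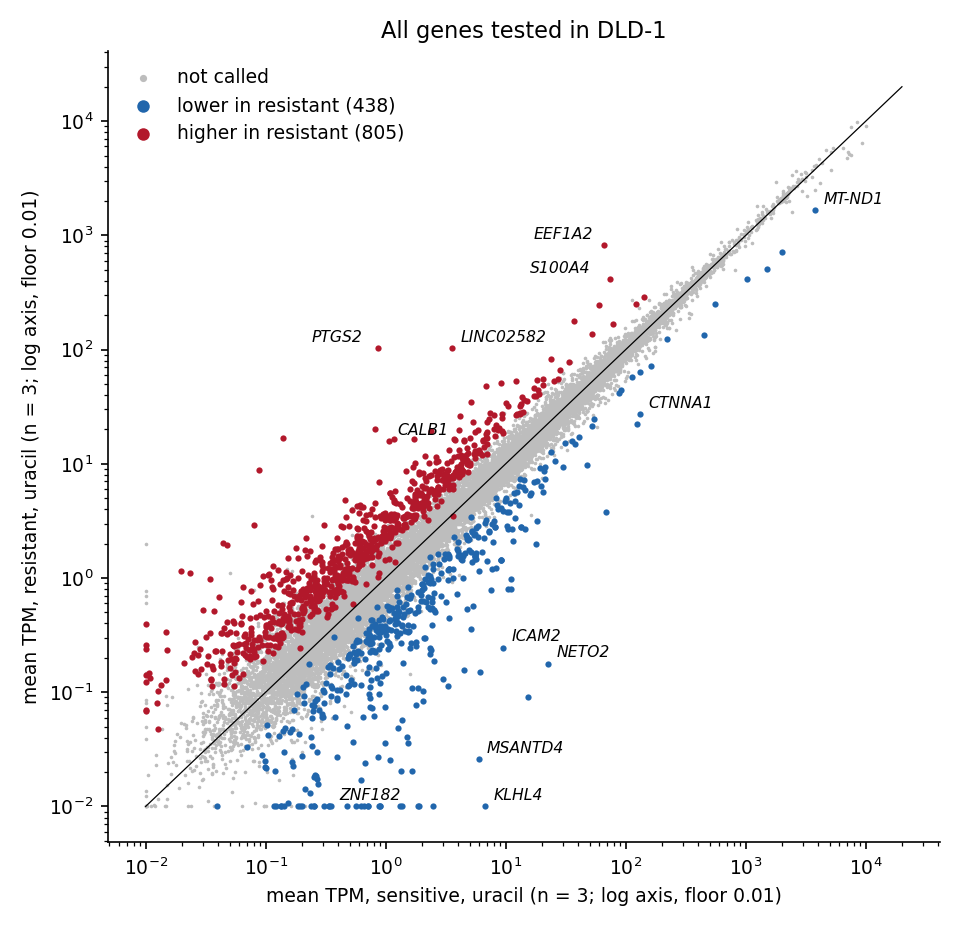
Mean TPM of each gene tested in the 3 resistant (y) against the 3 sensitive libraries (x) of DLD-1 cells under uracil, both on log axes with values under 0.01 drawn at 0.01. Each point is a gene, with the 438 called lower in blue and the 805 called higher in red; KLHL4 and MSANTD4 lie at the bottom, PTGS2 far above the diagonal, and EEF1A2 and CTNNA1 are among the abundant genes that moved.

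Of the listed epithelial adhesion and junction genes, CTNNA1 alone was called. It encodes alpha-catenin, the protein that links the cadherin and beta-catenin complex to the actin cytoskeleton. CTNNA1 (chr5:138610967-138935034, plus strand, by GENCODE 44 on GRCh38) stood at 129, 132 and 135 TPM in the sensitive libraries and at 28.1, 27.1 and 26.1 TPM in the resistant libraries. All resistant libraries lay far below all sensitive ones, and the libraries of a group lay close to each other. The fitted change was -2.81 ± 0.04 (edgeR adjusted p = 1.22e-22), a 7.02-fold decrease of the counts, whereas the ratio of the mean TPM was 4.87. The transcripts did not change alike. The leading full-length transcript ENST00000302763 fell from 105 ± 2.72 to 10.7 ± 0.116 TPM (SD, n = 3), a ratio of 9.80. The short transcript ENST00000521387 stood at 8.00 ± 0.816 and 5.14 ± 0.374 TPM, and ENST00000522792 at 3.64 ± 0.248 and 3.6002 ± 0.847 TPM. So the loss was concentrated in the leading transcript, and estimated levels of shorter ones made up more of the remainder.

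Of the 35 epithelial adhesion and junction genes, all tested, CTNNA1 was the only one called lower and none was called higher. At the adjusted p alone 8 were lower and 3 higher, and the median of the list was -0.05. CDH1, which encodes E-cadherin, stood at 225, 231 and 235 TPM in sensitive and 319, 240 and 261 TPM in resistant cells, a change of 0.18 ± 0.04 (edgeR adjusted p = 0.00256) far under 2-fold. JUP, which encodes plakoglobin and is named here after its values were seen, changed by 0.45 ± 0.05 (edgeR adjusted p = 2.93e-07). EPCAM, an epithelial adhesion molecule used as a carcinoma marker, gave overlapping groups at 852, 814 and 833 against 783, 834 and 830 TPM. Its change was -0.06 ± 0.04 (edgeR adjusted p = 0.289).

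The promoter of CTNNA1 is shown beside those of 3 other genes with very large changes, because they differ in how rich they are in CpG, the dinucleotide at which mammalian DNA is methylated; methylation itself was not measured here. Each line gives the 250 bases before the start of transcription from RefSeq on build GRCh38.p14, read 5′ to 3′ along the gene's strand, with every CG in capitals. The search was for the letters CG, which read the same on both strands.
CTNNA1 (chr5:138753175-138753424, plus strand): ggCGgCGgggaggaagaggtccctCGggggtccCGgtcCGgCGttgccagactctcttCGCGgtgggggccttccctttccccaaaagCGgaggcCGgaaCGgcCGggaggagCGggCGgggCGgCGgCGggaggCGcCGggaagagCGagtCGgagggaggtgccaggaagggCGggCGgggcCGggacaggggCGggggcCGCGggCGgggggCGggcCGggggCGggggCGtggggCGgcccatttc
NPTX2 (chr7:98617035-98617284, plus strand): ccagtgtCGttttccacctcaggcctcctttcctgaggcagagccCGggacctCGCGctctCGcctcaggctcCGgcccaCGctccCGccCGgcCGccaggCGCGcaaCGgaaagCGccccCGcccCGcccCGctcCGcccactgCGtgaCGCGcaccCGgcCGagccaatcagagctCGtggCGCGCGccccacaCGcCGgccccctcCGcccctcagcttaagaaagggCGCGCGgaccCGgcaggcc
KLHL4 (chrX:87517552-87517801, plus strand): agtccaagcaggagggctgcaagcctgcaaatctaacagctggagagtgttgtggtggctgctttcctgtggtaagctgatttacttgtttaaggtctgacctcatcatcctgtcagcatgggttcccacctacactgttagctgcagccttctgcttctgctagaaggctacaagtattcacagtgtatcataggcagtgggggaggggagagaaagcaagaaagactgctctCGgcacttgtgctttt
PTGS2 (chr1:186680424-186680673, minus strand): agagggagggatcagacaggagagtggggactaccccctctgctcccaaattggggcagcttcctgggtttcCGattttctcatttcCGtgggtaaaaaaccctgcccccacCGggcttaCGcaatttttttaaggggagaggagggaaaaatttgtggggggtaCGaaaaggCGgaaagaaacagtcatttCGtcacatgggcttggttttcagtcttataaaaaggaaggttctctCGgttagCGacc
The CTNNA1 window holds 33 CG and the NPTX2 window 34, counts that only 8.14% and 6.83% of the 34943 starts in the table reach or exceed. The median of all starts is 11, and that of the tested genes that could be matched to a start is 22. CTNNA1 has 4 starts in the table, and the one shown is that of its leading transcript. KLHL4 holds 1 CG, a count met or undercut by 14.7% of all starts, and PTGS2 holds 9. Of the genes shown, only NPTX2 and KLHL4 lost nearly all their RNA, and their CG counts differ widely. The genes were picked because they differ in CG, so nothing is concluded from this. A comparison of CG counts over all called genes is void, since only 57.2% of the genes tested could be matched to a start in the table.

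KLHL4, which encodes a kelch-like protein, showed the largest decrease of all well expressed genes. It lies at chrX:87517409-87670050 on the plus strand, and its counts were 784, 3114 and 811 in the sensitive libraries and 0, 0 and 1 in the resistant libraries. In TPM this was 6.53, 6.86 and 6.73 against 0, 0 and 0.00624. The ratio of depth-scaled counts was 2057 (95% exact interval 369 to 81252, counting error only), and the fit gave an edgeR adjusted p of 6.91e-17. MSANTD4, which encodes a Myb/SANT-like domain protein, followed with 543, 1874 and 481 counts against 2, 1 and 2, a ratio of 253 (interval 108 to 780, counting error only). NPTX2, a secreted neuronal pentraxin chosen here after its values were seen, stood at 2.65, 2.23 and 2.54 TPM against 0.0218, 0 and 0 TPM. These genes were expressed at a few TPM in every sensitive library and were at or near 0 in every resistant library.

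NETO2, which encodes an auxiliary subunit of kainate receptors, started from a higher level. It stood at 24.4, 21.97 and 21.8 TPM in sensitive and 0.195, 0.0822 and 0.256 TPM in resistant cells (-7.12 ± 0.15, edgeR adjusted p = 1.04e-18). ICAM2, an intercellular adhesion molecule that binds leukocyte integrins, fell from 9.67, 9.53 and 9.28 TPM to 0.280, 0.282 and 0.177 TPM (-5.43 ± 0.17, edgeR adjusted p = 1.36e-15). In both genes every resistant library lay below every sensitive library by over an order of magnitude. SLC7A7, the light chain of the y+L cationic amino acid transporter, fell by 4.05 on the log2 scale, CABYR, a calcium-binding sperm tail protein, by 4.07, and CABP4, a calcium-binding protein of photoreceptors, by 4.19. SBSPON fell by 3.85 and SERPINA1, the alpha-1-antitrypsin gene, by 3.36. The non-coding C6orf223 fell by 6.16, and AC247036.1 and AC136475.3, which have no symbol, by 7.17 and 3.63. In all, 477 of the 59368 genes had at most 3 counts in each resistant library and 1 TPM or more on average in sensitive cells. The reverse was shown by 235. The limit of 3 counts was not scaled for depth and was harder to meet in the far deeper sensitive replicate 2. The 477 and the 235 therefore cannot be compared. Most of these genes had too few counts to be tested: 18 of the 477 were tested, of which 14 were called, and 1 of the 235 was tested and not called. The 5 with the highest TPM in sensitive cells were MIR6783, AC247036.1, RNU6-762P, RNU6-1262P and MIR3164, and in the reverse direction MT-TR, MIR3671, RNA5SP86, MIR6721 and RNY4P37, nearly all short RNAs that poly(A) libraries do not measure well.

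On the other side, PTGS2 showed the largest increase among well expressed genes. It encodes cyclooxygenase-2, the inducible enzyme that makes the precursor of the prostaglandins. PTGS2 (chr1:186671791-186680922, minus strand) stood at 0.825, 0.955 and 0.818 TPM in sensitive cells and 113, 96.1 and 97.3 TPM in resistant cells. Every resistant library was thus far above every sensitive one. The change was 6.91 ± 0.08 (edgeR adjusted p = 3.01e-23), and it rested on the reference transcript ENST00000367468, at 0.768 ± 0.0933 TPM in sensitive and 95.1 ± 6.87 TPM in resistant cells.

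The called genes next to PTGS2 rose with it, and they are named here because a search for 3 or more adjacent called genes found them. PACERR, the antisense non-coding RNA at the PTGS2 promoter, stood at 0.164, 0.405 and 0.158 against 1.18, 1.30 and 0.492 TPM (1.77 ± 0.45, edgeR adjusted p = 0.00379). PLA2G4A, the cytosolic phospholipase A2 that releases arachidonic acid for cyclooxygenases, stood at 3.93, 2.98 and 2.93 against 11.6, 5.64 and 6.35 TPM (1.23 ± 0.19, edgeR adjusted p = 2.01e-05). In each the groups did not overlap, although without resistant replicate 1 PACERR no longer passed (edgeR adjusted p = 0.0133) and PLA2G4A changed by 0.88, under 2-fold. The 3 genes span 317 kb, at chr1:186671791-186988981. Libraries were directional, but whether counting used the strand is not given for kallisto in the sources used here, so reads of PACERR and PTGS2 may not be fully separated. Of the other genes of prostaglandin synthesis, PTGS1, which encodes the constitutive cyclooxygenase, rose by 1.61 ± 0.22 from a low level (0.334, 0.267 and 0.349 against 1.28, 0.650 and 0.849 TPM, edgeR adjusted p = 5.71e-06). PTGES, the prostaglandin E synthase, changed by 0.08 ± 0.06 with overlapping groups (edgeR adjusted p = 0.287). In all 6 such runs were found, all of them of higher genes, but only 2 of them had all 3 genes called without resistant replicate 1. Adjacency was judged among the 16039 tested protein-coding and long non-coding genes, skipping others. More genes were called higher than lower, and no expected number of runs was computed. The 6 runs included PPM1J, TAFA3 and LINC01356; PYGL, ABHD12B and TRIM9; and, as the 2 that held, NRTN, FUT6 and FUT3 and TNNT1, TNNI3 and DNAAF3.

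Of 45 NF-kB chemokine and prostaglandin genes, 37 were tested, with a median of 0.10. Called lower were 2 (5.41%, beside 2.01% of all genes) and called higher 4 (10.8%, beside 3.69%). Besides PTGS2 and PTGS1 the higher ones were neutrophil chemokines. CXCL8 stood at 22.2, 20.8 and 17.8 TPM in sensitive and 34.6, 58.3 and 53.6 TPM in resistant cells (1.27 ± 0.14, edgeR adjusted p = 2.59e-07), and CXCL1 changed by 1.10 ± 0.16. Resistant replicate 1 was the lowest of the resistant libraries for both chemokines. IL32, a proinflammatory cytokine, moved the other way, from 19.6, 21.8 and 19.8 TPM to 3.75, 6.79 and 6.44 TPM (-1.84 ± 0.13, edgeR adjusted p = 3.78e-10). BIRC3, an inhibitor of apoptosis that NF-kB induces, changed by -1.04 ± 0.06, and by -0.98 without resistant replicate 1, which leaves 1 called lower gene in the list.

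**Figure D2:**
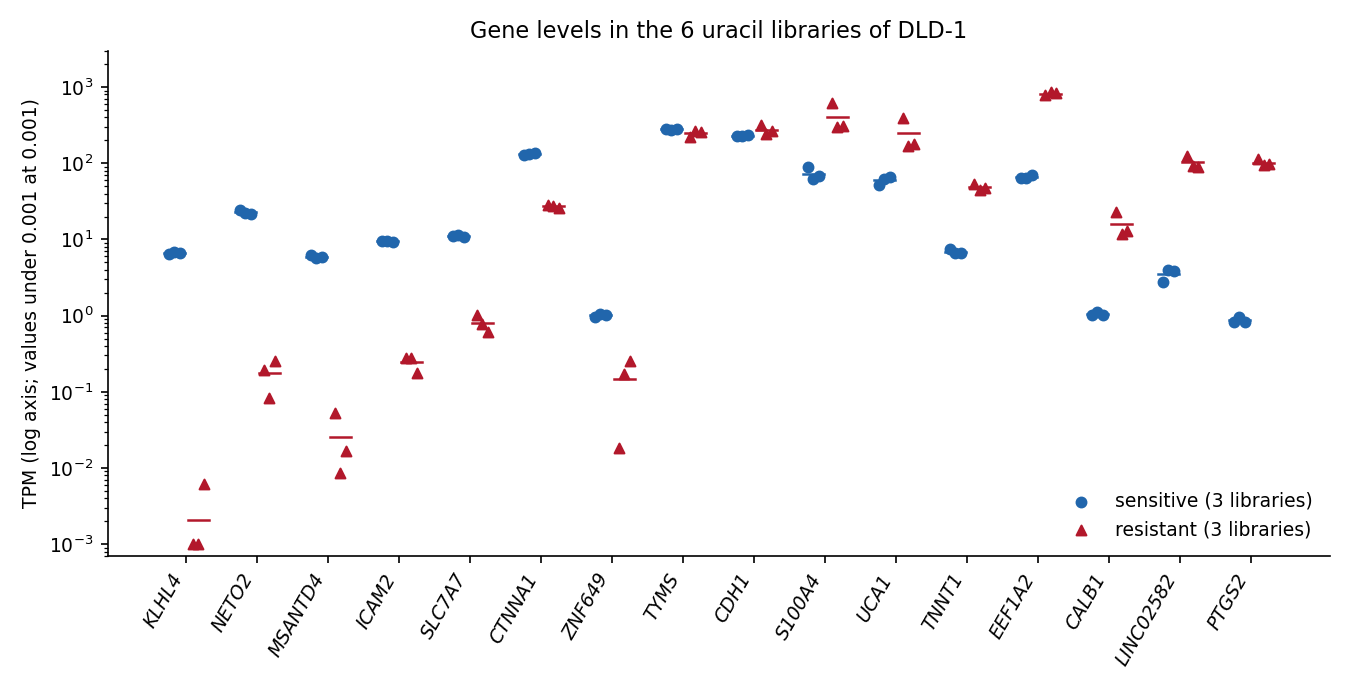
TPM on a log axis of 16 genes in the 3 sensitive (blue circles) and 3 resistant (red triangles) libraries of DLD-1 cells under uracil, with bars at the group means and values under 0.001 drawn at 0.001. The groups do not overlap for any gene shown, the gap being small for CDH1 (225 to 235 against 240 to 319 TPM) and TYMS (274 to 285 against 224 to 263 TPM) and widest for KLHL4. Resistant replicate 1, the left triangle of each gene, is the highest resistant library for MSANTD4, SLC7A7, CTNNA1, CDH1, S100A4, UCA1, TNNT1, CALB1, LINC02582 and PTGS2.

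Among the called genes, EEF1A2 gained the most RNA by mean TPM. It encodes the eEF1A2 isoform of the translation elongation factor that delivers aminoacyl-tRNA to the ribosome, an isoform normally confined to neurons and muscle. EEF1A2 (chr20:63488013-63499239, minus strand) stood at 64.8, 63.6 and 69.2 TPM in sensitive and 777, 850.0 and 837 TPM in resistant cells (3.68 ± 0.06, edgeR adjusted p = 4.49e-20). Its widely expressed paralog EEF1A1, named here after its values were seen, changed by 0.22 ± 0.04 (edgeR adjusted p = 7.96e-05), less than 2-fold. The paralogs share sequence, so a small share of reads may be assigned to the wrong copy. The next largest gains of mean TPM among called genes were S100A4, UCA1, SCGB3A2, LGALS3BP and SAA1. S100A4, a calcium-binding protein known for its link to metastasis, stood at 89.1, 63.0 and 67.8 against 621, 304 and 309 TPM (2.44 ± 0.19, edgeR adjusted p = 1.5e-09), with resistant replicate 1 at about the sum of the others. Without that library the change was 2.04. UCA1, a long non-coding RNA first described in urothelial cancer, stood at 52.4, 61.5 and 65.4 against 395, 166 and 178 TPM (2.00 ± 0.19, edgeR adjusted p = 5.58e-08), and its change was 1.54 without resistant replicate 1. SCGB3A2, a secretoglobin of the airway, stood at 32.8, 39.4 and 38.8 against 203, 167 and 165 TPM (2.24 ± 0.09, edgeR adjusted p = 4.15e-14). LGALS3BP, the galectin-3-binding protein, rose by 1.02 ± 0.06 and SAA1, an acute phase protein, by 1.01 ± 0.10, but without resistant replicate 1 they changed by 0.95 and 0.81, under the 2-fold limit.

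Further genes rose from low levels. LINC02582, a non-coding RNA, stood at 2.78, 4.01 and 3.89 against 125, 93.0 and 89.5 TPM (4.54 ± 0.11, edgeR adjusted p = 1.75e-17). CALB1, the calcium buffer calbindin, stood at 1.03, 1.12 and 1.03 against 22.6, 11.7 and 13.1 TPM (4.83 ± 0.22, edgeR adjusted p = 3.65e-13). CTHRC1, a secreted collagen triple helix protein, stood at 2.98, 2.30 and 1.93 against 21.4, 17.4 and 18.8 TPM (3.03 ± 0.13, edgeR adjusted p = 1.67e-13). In each of these every resistant library exceeded every sensitive one. KCNAB2, a potassium channel subunit, rose by 3.18 ± 0.10 on the log2 scale, a 9.03-fold increase of the counts, while its mean TPM rose only 3.84-fold. TNNT1, the slow skeletal troponin T, stood at 7.48, 6.57 and 6.64 against 52.7, 45.2 and 47.2 TPM, a change of 2.76 ± 0.09 (edgeR adjusted p = 1.41e-15). Its neighbours TNNI3, cardiac troponin I, and DNAAF3, a dynein assembly factor, changed by 1.92 ± 0.28 and 1.58 ± 0.10. AC019117.2, AL136018.1, AC019117.3, AL117378.1 and AC011611.3, genes without a symbol, rose by 6.86, 6.62, 4.58, 3.41 and 3.10 on the log2 scale.

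The mesenchymal and matrix genes moved in both directions. Of 36 listed, 32 were tested, 6 were called higher (18.8%, beside 3.69% of all genes) and 4 lower (12.5%, beside 2.01%), and their median was 0.30. Without resistant replicate 1, 5 were called higher. Called members beyond the 4 largest changes of a list are named after their values were seen, here and in the lists that follow. COL13A1, a transmembrane collagen, stood at 0.663, 0.471 and 0.709 against 4.86, 3.96 and 4.27 TPM (2.92 ± 0.15, edgeR adjusted p = 3.73e-12) and HAS2, a hyaluronan synthase, rose by 2.41 ± 0.11. ZEB1 and LOXL2 were also called higher, but both lay under 2 TPM in every library, with overlapping TPM in ZEB1 (0.490, 0.389 and 0.165 against 0.732, 0.391 and 0.478) and LOXL2, which changed by 0.90 without resistant replicate 1, under 2-fold. TNC, the matrix protein tenascin-C, went the other way, at 2.45, 2.35 and 2.43 against 0.177, 0.182 and 0.799 TPM (-4.05 ± 0.13, edgeR adjusted p = 1.9e-15). LAMA3, the alpha-3 chain of the basement membrane laminin 332, stood at 16.05, 16.8 and 16.2 against 5.46, 5.55 and 5.73 TPM (-1.77 ± 0.06, edgeR adjusted p = 1.29e-14). CCN2 and LOX changed by -1.12 ± 0.11 and -1.03 ± 0.22. VIM, which encodes the intermediate filament vimentin, was near the limit of detection in both groups (0.260, 0.239 and 0.531 against 0.745, 0.467 and 0.259 TPM) and did not pass the test (0.31 ± 0.33, edgeR adjusted p = 0.511). Of the markers of other cell types, PDGFRB of fibroblasts was called higher (1.31 ± 0.22, at most 1.17 TPM) and ERG of endothelium lower (-1.26 ± 0.16, at most 1.28 TPM); their part in the result was not tested.

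Differentiation genes of the intestine also split. Of 44 listed, 30 were tested, 4 were called lower (13.3%, beside 2.01% of all genes) and 3 higher (10%, beside 3.69%), with a median of -0.26. The 4 lower ones, GUCY2C, SPINK1, PIGR and REG4, lay under 2 TPM in every library, as did 2 of the higher ones, ATOH1, the transcription factor of secretory progenitors (4.65 ± 0.85, at most 0.226 TPM), and MUC2, the goblet cell mucin, whose groups overlapped. SPINK4, a goblet cell protease inhibitor, stood at 4.42, 3.17 and 3.50 against 8.25, 8.43 and 7.06 TPM. Of 19 keratins, 15 were tested, and KRT20, the keratin of differentiated colonocytes, was the only one called: it stood at 51.97, 50.98 and 53.9 against 158, 127 and 125 TPM (1.36 ± 0.06, edgeR adjusted p = 3.71e-13). Of 26 WNT target and stem cell genes, 22 were tested. NOTUM, a secreted WNT inhibitor, stood at 1.96, 2.09 and 1.99 against 1.09, 0.640 and 0.651 TPM (-1.56 ± 0.21, edgeR adjusted p = 3.94e-06). PROM1, which encodes the stem cell antigen CD133, stood at 4.43, 3.74 and 4.44 against 13.4, 11.2 and 11.5 TPM (1.55 ± 0.08, edgeR adjusted p = 4.1e-12). No other gene of that list was called, and its median was -0.03.

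**Figure D3:**
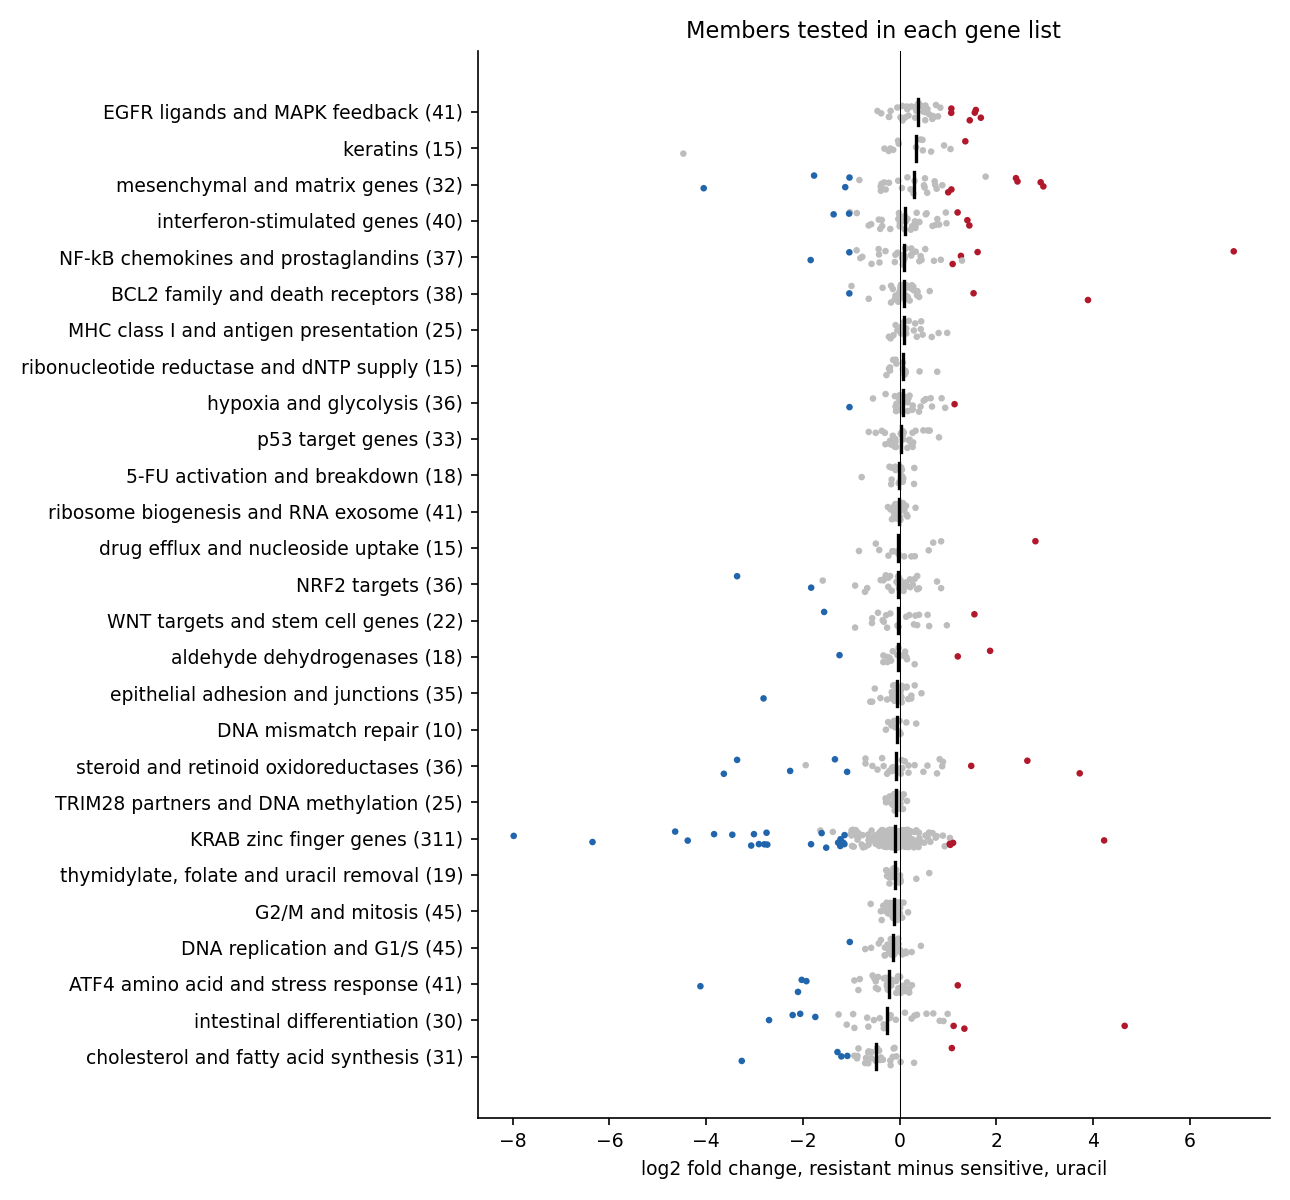
Log2 fold change (resistant minus sensitive, uracil) of every tested member of each gene list, for the lists other than the cell type markers and the mitochondrial genes, 1 point per gene, called lower in blue, called higher in red and not called in grey, with a bar at the list's median and the number tested in brackets. Of the lists drawn, the EGFR and MAPK list has the highest median (0.39) and the cholesterol list the lowest (-0.49), and the lists of 5-FU activation, thymidylate synthesis, mismatch repair and ribosome biogenesis contain no called gene.

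The genes that handle 5-FU differed little under uracil. Of 21 genes of 5-FU activation and breakdown, 18 were tested and none was called, with a median of -0.00; at the adjusted p alone 3 were lower and 0 higher. UPP1, the uridine phosphorylase that can join 5-FU to ribose, gave the largest change among the genes named from this list, from 24.3, 25.2 and 25.1 TPM to 15.02, 13.8 and 14.05 TPM (-0.78 ± 0.06, edgeR adjusted p = 4.77e-10), a 1.72-fold decrease under the 2-fold limit. In the 5-FU libraries UPP1 was called lower (-1.63 ± 0.06, edgeR adjusted p = 3.21e-15). Of the 18 genes tested, 9 differed between uracil and 5-FU, beside 22.8% of all genes. UMPS, which makes fluorouridine monophosphate, stood at 54.2, 56.3 and 64.3 against 52.6, 57.5 and 63.6 TPM, with overlapping groups (0.05 ± 0.05, edgeR adjusted p = 0.49). TYMP, thymidine phosphorylase, changed by 0.05 ± 0.15 and TK1, thymidine kinase, by -0.09 ± 0.04, neither passing the test. DPYD, the enzyme that degrades 5-FU, had 4, 11 and 2 counts in sensitive and 1, 1 and 0 in resistant libraries and could not be tested, so a difference was not detectable at this depth.

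TYMS, the thymidylate synthase that 5-FU inhibits, stood at 285, 274 and 280 TPM in sensitive and 224, 263 and 259 TPM in resistant cells. The groups did not overlap, but the change was small (-0.21 ± 0.06, edgeR adjusted p = 0.00752), and without resistant replicate 1 it was -0.12 (edgeR adjusted p = 0.0206). The genes within 1 Mb of TYMS, namely COLEC12, ENOSF1, LINC01925, THOC1, TYMSOS, USP14 and YES1, were not called either. Of 19 genes of thymidylate and folate metabolism and uracil removal, all tested, none was called. At the adjusted p alone 7 were lower and 1 higher, beside 11.5% and 13.1% of all genes, with a median of -0.10. DUT, the dUTPase, changed by -0.13 ± 0.05 and UNG, the uracil-DNA glycosylase, by -0.25 ± 0.06. None of the 15 genes of ribonucleotide reductase and dNTP supply was called. Of 18 efflux and nucleoside uptake genes, 15 were tested and 1 was called: SLC28A3, the concentrative nucleoside transporter CNT3, stood at 0.119, 0.126 and 0.134 against 1.14, 1.06 and 1.35 TPM (2.81 ± 0.21, edgeR adjusted p = 9.62e-10). All resistant libraries lay above all sensitive ones, at a low level throughout. The equilibrative transporter SLC29A1, far more abundant at 66.9, 68.9 and 68.2 against 61.0, 65.8 and 66.2 TPM, changed by -0.06 ± 0.03 and ABCC5, an efflux pump, by -0.13 ± 0.05, and neither passed the test.

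Cholesterol synthesis genes were mostly lower in resistant cells. Of 31 cholesterol and fatty acid synthesis genes, all tested, 25 were lower and 2 higher at the adjusted p alone, with a median of -0.49, and 4 were called lower (12.9%, beside 2.01% of all genes) and 1 higher. The summed level of the list was 2809 to 2828 TPM in sensitive and 1847 to 1910 TPM in resistant libraries. HMGCS1, the synthase that makes HMG-CoA for the pathway, stood at 164, 159 and 166 against 62.8, 75.3 and 77.3 TPM (-1.20 ± 0.06, edgeR adjusted p = 1.21e-12). INSIG1, the sterol-regulated anchor of the SREBP system, stood at 49.98, 49.2 and 56.4 against 23.0, 20.9 and 20.9 TPM (-1.28 ± 0.06, edgeR adjusted p = 3.35e-13), and MSMO1, a sterol oxidase, changed by -1.08 ± 0.09. In each of these every resistant library lay below every sensitive one. FADS2, a fatty acid desaturase, was the called gene in the other direction (1.08 ± 0.07).

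Targets of ATF4, the transcription factor of the amino acid and stress response, were more often lower than higher. Of 43 listed, 41 were tested, 4 were called lower (9.76%, beside 2.01% of all genes) and 1 higher (2.44%, beside 3.69%). At the adjusted p alone 19 were lower and 3 higher, beside 11.5% and 13.1% of all genes, and the median was -0.22. ADM2, a peptide hormone of the adrenomedullin family, stood at 1.79, 1.98 and 1.76 against 0.127, 0.0778 and 0.120 TPM (-4.12 ± 0.24, edgeR adjusted p = 1.42e-11). NUPR1, a stress-induced chromatin protein, stood at 1.41, 1.67 and 1.77 against 0.232, 0.498 and 0.0753 TPM (-2.10 ± 0.24, edgeR adjusted p = 6.46e-07). FGF19 and FGF21, endocrine fibroblast growth factors, changed by -2.02 ± 0.48 and -1.93 ± 0.48 at levels under 1 TPM. All 4 of these lower genes stood under 2 TPM. ASNS, asparagine synthetase, a more abundant target, gave 171, 164 and 172 against 205, 135 and 135 TPM and did not pass the test (-0.14 ± 0.08, edgeR adjusted p = 0.186), but without resistant replicate 1 it changed by -0.30 (edgeR adjusted p = 0.000107). ALDH1L2, the higher one, which oxidises mitochondrial formyl-tetrahydrofolate, was no longer called without resistant replicate 1.

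EGFR ligand and MAPK feedback genes lay mostly above their level in sensitive cells. Of 42 listed, 41 were tested, 23 were higher and 2 lower at the adjusted p alone, 6 were called higher (14.6%, beside 3.69% of all genes) and none lower, and the median was 0.39. DUSP4, a phosphatase that ERK signalling induces and that dampens it, stood at 1.85, 1.58 and 1.88 against 6.58, 4.78 and 4.40 TPM (1.58 ± 0.10, edgeR adjusted p = 8.44e-11). SPRED3, an inhibitor of the RAS pathway, rose by 1.56 ± 0.14 and ETV1, an ETS transcription factor, by 1.45 ± 0.10. PHLDA1 rose by 1.07 ± 0.04, and HBEGF, the heparin-binding EGF-like ligand, by 1.07 ± 0.10. NRG2, a neuregulin, rose by 1.68 ± 0.45 at under 1 TPM. Without resistant replicate 1, 4 of the list were called.

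Cell death and stress lists held few called genes. None of the 33 tested p53 targets was called. At the adjusted p alone 4 were lower and 7 higher, beside 11.5% and 13.1% of all genes. DLD-1 cells carry mutant p53, and whether this bears on the result was not tested. CDKN1A, the cell cycle inhibitor p21, stood at 8.06, 7.25 and 8.02 against 11.5, 5.01 and 5.01 TPM and BAX changed by -0.08 ± 0.04, neither passing the test. Without resistant replicate 1 CDKN1A changed by -0.66 (edgeR adjusted p = 1.94e-05), under 2-fold. Of 38 tested BCL2 family and death receptor genes, HRK, a BH3-only activator of apoptosis, rose from 0.0369, 0.210 and 0.0649 to 1.24, 0.819 and 1.10 TPM (3.90 ± 0.27, edgeR adjusted p = 3.99e-10). FASLG, the Fas ligand, rose by 1.53 ± 0.22, and BIRC3 was the lower one. Of 36 NRF2 targets tested, AKR1C3 and CYP4F11 were lower and none higher. AKR1C3, an aldo-keto reductase of steroids and prostaglandins, stood at 5.23, 4.13 and 4.85 against 0.821, 0.482 and 0.296 TPM (-3.36 ± 0.25, edgeR adjusted p = 7.95e-10); AKR1C genes are close copies, so the assignment of its reads is uncertain. Of 18 aldehyde dehydrogenases tested, ALDH1A3, which makes retinoic acid, stood at 6.44, 6.70 and 7.95 against 21.96, 23.3 and 23.7 TPM (1.87 ± 0.06, edgeR adjusted p = 4.03e-15), ALDH1L2 was the other higher one, and ALDH1L1, the cytosolic formyl-tetrahydrofolate dehydrogenase, was lower (-1.24 ± 0.11).

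Steroid and retinoid oxidoreductases had 36 of 40 members tested, 5 lower (13.9%, beside 2.01% of all genes) and 3 higher (8.33%, beside 3.69%), or 6 and 2 without resistant replicate 1. SDR42E1 and AKR1C3 gave the largest decreases (-3.63 ± 0.28 and -3.36 ± 0.25). UGT1A1, a glucuronosyltransferase of bilirubin and drugs that shares exons with the other UGT1A genes, stood at 5.86, 4.83 and 4.76 against 31.3, 35.1 and 37.4 TPM (2.64 ± 0.09, edgeR adjusted p = 4.56e-15). HSD11B1 rose by 3.73 ± 0.88 at no more than 1.10 TPM. Interferon-stimulated genes had 40 of 47 tested, 2 lower (5%, beside 2.01% of all genes) and 3 higher (7.5%, beside 3.69%). OAS1, which senses double-stranded RNA, stood at 20.96, 19.98 and 22.1 against 9.89, 7.48 and 8.33 TPM (-1.36 ± 0.09, edgeR adjusted p = 1.61e-10). ISG20, an exonuclease, and UBE2L6, the conjugating enzyme of ISG15, rose by 1.44 ± 0.11 and 1.40 ± 0.11. LGALS9 was the other higher one and IFI35 the other lower one. Hypoxia and glycolysis genes had 36 of 37 tested, with ENO2, neuronal enolase, higher (1.14 ± 0.06) and LOX lower.

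Growth-related lists shifted by little. DNA replication and G1/S genes had a median of -0.14, with 19 of 45 lower and 2 higher at the adjusted p alone. MCM4, a subunit of the replicative helicase, was the only one called, at 220.4, 225 and 219 against 125, 124 and 118 TPM (-1.03 ± 0.05, edgeR adjusted p = 1.3e-12), and it changed by -0.94 without resistant replicate 1. Of 45 G2/M and mitosis genes, 12 were lower at the adjusted p alone and none was called; PBK, a mitotic kinase, changed by -0.22 ± 0.05. None of the 10 mismatch repair genes was called and none of the 41 ribosome biogenesis and RNA exosome genes or the 25 tested MHC class I genes.

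The mitochondrially encoded mRNAs were lower as a group, and they are described here after their values were seen. All 13 were tested, 11 were lower at the adjusted p alone, beside 11.5% of all genes, and 1 was called (7.69%, beside 2.01%), with a median of -0.54. Their summed level was 68090 to 79785 TPM in sensitive and 49860 to 57309 TPM in resistant libraries, with no overlap. MT-ND1, a subunit of respiratory complex I, was the one called, at 3542, 4269 and 3618 against 1342, 1910.4 and 1755 TPM (-1.20 ± 0.10, edgeR adjusted p = 2.77e-09). The mitochondrial tRNAs MT-TA, MT-TN, MT-TP, MT-TC and MT-TY fell by 1.55, 1.41, 1.31, 1.29 and 1.09 on the log2 scale, but short RNAs without long poly(A) tails are poorly captured by this protocol.

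KRAB zinc finger proteins are a large family of DNA-binding repressors that recruit TRIM28, and many of their genes lie in clusters on chromosome 19. Of 366 genes found to encode a KRAB domain with zinc fingers, 311 were tested, 22 were called lower (7.07%, beside 2.01% of all genes) and 4 higher (1.29%, beside 3.69%), with a median of -0.10. Of the 187 tested on chromosome 19, 17 were called lower and 3 higher, beside 33 lower and 67 higher of all 1173 genes tested there. ZNF182 (on chromosome X) stood at 1.81, 1.91 and 1.96 TPM in sensitive and 0.0109, 0.01002 and 0 TPM in resistant cells (-7.98 ± 0.34, edgeR adjusted p = 1.23e-13). ZNF649 stood at 0.973, 1.07 and 1.01 against 0.0182, 0.170 and 0.253 TPM (-4.38 ± 0.31, edgeR adjusted p = 4.03e-10) and ZNF559 at 0.958, 0.546 and 0.703 against 0.0667, 0.0621 and 0.0925 TPM (-2.91 ± 0.37, edgeR adjusted p = 2.08e-06). In each the groups did not overlap, although these are low-abundance genes. ZNF836, ZNF878, ZNF841 and ZNF738 changed by -6.35 ± 0.68, -4.64 ± 0.42, -3.83 ± 0.19 and -3.46 ± 0.45. For ZNF836, with 0, 1 and 0 counts in resistant libraries, the ratio was 94.8 (interval 16.8 to 3761, counting error only). In the other direction ZNF595 on chromosome 4 stood at 0.0511, 0.0480 and 0.0328 against 2.15, 1.82 and 2.04 TPM (4.23 ± 0.35, edgeR adjusted p = 5.11e-09), and ZNF430, ZNF708 and ZNF792 changed by 1.11, 1.05 and 1.04. These genes are similar in sequence, so the assignment of reads among them is uncertain. TRIM28 itself stood at 635, 604 and 616 against 567, 574 and 614 TPM, with overlapping groups (0.01 ± 0.05, edgeR adjusted p = 0.922), and none of the 25 genes of TRIM28 partners and DNA methylation was called.

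The same resistant and sensitive cells were compared in separate libraries under 5-FU and under 5-FU with irradiation. Under 5-FU, 1140 genes were lower (5.23%) and 847 higher (3.88%), and with irradiation 1106 were lower (5.07%) and 941 higher (4.31%). Of the 438 genes lower under uracil, 341 (77.9%) were also called lower under 5-FU and 324 (74.0%) with irradiation. Of the 805 higher genes, 434 (53.9%) and 482 (59.9%) were. The opposite call was given to 1 and 0 of the lower genes and to 4 and 3 of the higher genes. In all 3 comparisons 310 genes were lower and 399 higher. The median change of the genes lower under uracil was -1.75 there and -1.98 under 5-FU, and that of the higher genes 1.54 and 1.19.

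CTNNA1, PTGS2 and the nearly silent genes differed under every treatment. CTNNA1 changed by -2.83 under 5-FU and -2.64 with irradiation, and the uracil and 5-FU changes did not differ beyond the error (difference -0.02, edgeR adjusted p = 0.812). PTGS2 changed by 6.69 and 6.67, NETO2 by -7.83 and -6.97, and SLC28A3 by 2.98 under 5-FU. Tested directly, the change differed between uracil and 5-FU for 4978 of 21814 genes (22.8%) at an adjusted p of at most 0.01. It differed for 280 (22.5%) of the 1243 genes called under uracil, close to the share among all genes. These were chosen by the uracil change, which is part of the difference, so nothing is concluded from that share.

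The difference between resistant and sensitive cells in cholesterol synthesis and ATF4 genes was not the same under the treatments. Among cholesterol synthesis genes 27 of 31 differed between uracil and 5-FU: the median was -0.49 under uracil and 0.15 under 5-FU. INSIG1 changed by -1.28 under uracil and 0.55 under 5-FU (difference 1.83, edgeR adjusted p = 5.01e-12) and HMGCS1 by -1.20 and -0.08 (difference 1.12, edgeR adjusted p = 2.83e-09). Among ATF4 targets 36 of 41 differed, the median being -0.22 and 0.75, with 2 called lower and 10 higher under 5-FU. ASNS changed by -0.14 under uracil and 2.10 under 5-FU (difference 2.25, edgeR adjusted p = 5.04e-11), and FGF21 by -1.93 and 1.70 (difference 3.63, edgeR adjusted p = 0.00084). RPL22L1, a paralog of the ribosomal protein L22, stood at 694, 649.8 and 651 against 723, 756 and 786 TPM under uracil, a change of 0.16 ± 0.04, and changed by 2.69 under 5-FU (difference 2.53, edgeR adjusted p = 5.36e-16).

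**Figure D4:**
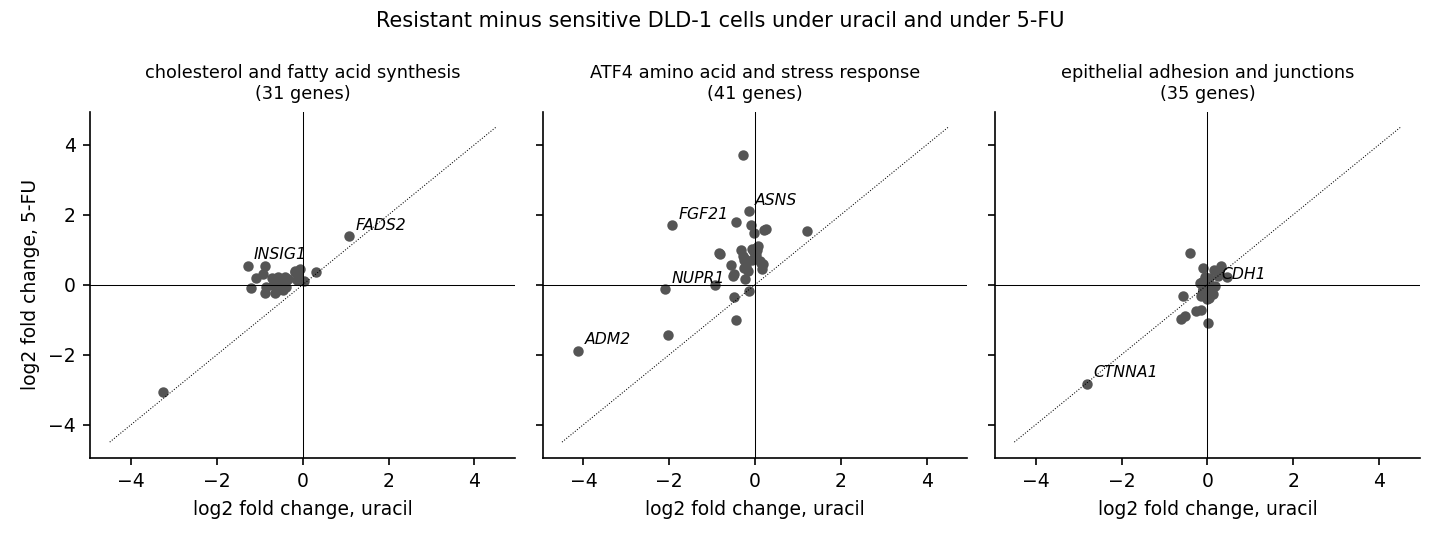
Log2 fold change (resistant minus sensitive) under 5-FU (y) against that under uracil (x) in DLD-1 cells for each tested gene of 3 lists, with a dotted line at equal change. Most cholesterol and ATF4 genes lie above the line, with medians of -0.49 and 0.15 and of -0.22 and 0.75 under uracil and 5-FU, while CTNNA1 lies on it at -2.81 and -2.83.

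In HCT-116, another colorectal carcinoma line made resistant in the same way, resistance under uracil went with a lower level of 1562 of 22975 genes (6.80%) and a higher level of 957 (4.17%). Of the 1243 genes called in DLD-1, 1040 were tested in HCT-116 and 312 were called in both. Of these, 117 went the same way, 61 lower and 56 higher, which is 9.41% of the DLD-1 calls and 4.64% of the HCT-116 calls, and 195 went opposite ways, 28 lower in DLD-1 and 167 higher in DLD-1, which is 15.7% and 7.74%. Opposite calls were thus more numerous than shared ones, but only among genes higher in DLD-1 (167 opposite and 56 shared). Among genes lower in DLD-1, 28 were opposite and 61 shared. Most DLD-1 calls were higher and most HCT-116 calls lower, which by itself favours opposite calls, and no expected share was computed. The change differed between the lines for 8197 of 24807 genes (33.0%). It differed for 855 of the 1243 DLD-1 calls, but these were chosen by a large DLD-1 change. That change is part of the difference tested, so their share cannot be set against that of all genes.

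PTGS2, EEF1A2 and CTNNA1, the leading genes of DLD-1, were not called in HCT-116. PTGS2 changed by -0.92 in HCT-116 (difference between lines edgeR adjusted p = 6.73e-24), EEF1A2 by -0.39 (edgeR adjusted p = 1.6e-26) and CTNNA1 by -0.57 (edgeR adjusted p = 1.6e-26), the last in the same direction as in DLD-1. NETO2 changed by 0.59 in HCT-116. Genes called the same way in both lines included S100A4 (2.44 in DLD-1 and 1.80 in HCT-116), CALB1 (4.83 and 2.63), ZNF649 (-4.38 and -5.00), ZNF559 (-2.91 and -3.62) and ZNF738 (-3.46 and -4.80). Named after their values were seen, the iron oxidase HEPH (-5.03 and -5.05), the histone chaperone NPM2 (-4.28 and -4.90), the lactonase PON3 (-3.44 and -3.30) and the selenium carrier SELENOP (-2.32 and -4.85) were lower in both. The difference between the lines passed the limit of 0.01 for S100A4, CALB1 and SELENOP and not for the other genes of this group.

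**Figure D5:**
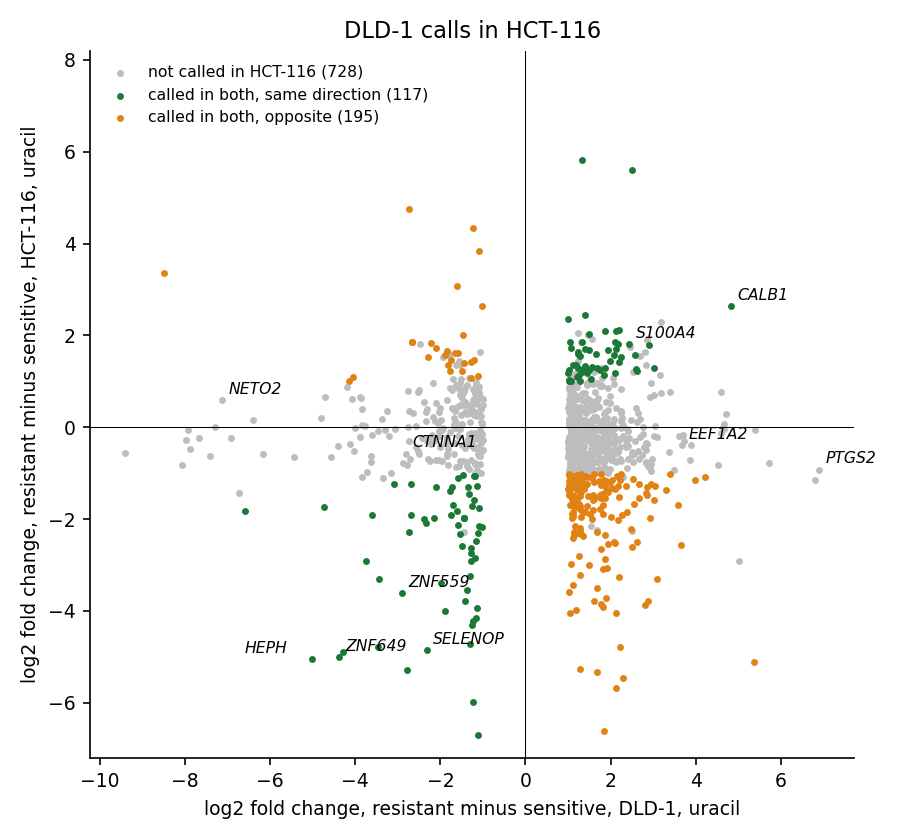
Log2 fold change (resistant minus sensitive, uracil) in HCT-116 (y) against DLD-1 (x) for the 1040 genes called in DLD-1 and tested in HCT-116, each point a gene. Genes called in both lines in the same direction are green (117), in opposite directions orange (195) and not called in HCT-116 grey (728); PTGS2, EEF1A2 and CTNNA1 lie at -0.92, -0.39 and -0.57 on the y axis.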

How the data were processed

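RNA-seq libraries (directional, poly(A)-selected, paired-end) were made from resistant and sensitive cells of 3 colorectal lines, in triplicate. Per the labels and methods, the authors trimmed reads with Trimmomatic 0.36, checked them with FastQC 0.11.8 and quantified them with kallisto 0.44.0 on the Ensembl transcriptome of GRCh38.p13. The deposited estimated counts per gene, of which 60.9% were whole, were rounded to whole numbers here; kallisto splits reads between similar transcripts, which can shift values among paralogs. Gene levels are the deposited TPM values per gene, scaled by the authors' run of kallisto for length and depth. The paper states that gene TPM was obtained by adding up the transcripts of a gene. Levels of single transcripts are the deposited TPM values per transcript.

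Groups came from the labels for line, sensitivity and treatment. edgeR 4.0.16 (R 4.3.3, limma 3.58.1) fitted all 18 DLD-1 libraries in 6 groups with TMM scaling and its default filter on low counts, leaving 21814 of 59368 genes and 12 residual degrees of freedom. Each comparison was a contrast tested by quasi-likelihood with Benjamini-Hochberg adjustment over all genes tested, and a gene was called where its log2 change reached 1 and its adjusted p did not exceed 0.01, the limits of the study. The difference between DLD-1 and HCT-116 was an interaction in 1 fit of 36 libraries. Alternatives were scaling by library size alone, no filter, DESeq2 1.42.0, the replicate number as a block, thinning the deepest library, only the 6 libraries compared, and leaving out each of them; counts of lists and of adjacent genes without resistant replicate 1 were added after seeing the data. Intervals cover counting error only.

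The members, gene lists and tests were chosen with earlier results of these data known. Genes were named as the 12 largest changes in each direction at 5 TPM or more, the 6 largest differences of TPM in each direction, up to 4 called members of each list, a fixed set of 5-FU and control genes, the 5 most abundant genes at the floor of 3 counts in each direction, the 6 largest decreases and all increases of KRAB zinc finger genes, and the genes within 1 Mb of TYMS; others are said to be chosen after their values were seen. Some genes that meet these rules are not reported here. KRAB genes were found with HMMER 3.4, starting from the KRAB domain of ZNF649, in proteins translated from the GENCODE 44 transcripts. Gene positions are from GENCODE 44, matched by name for 36796 genes and by an older name for 672. Replicate libraries of a group differed beyond counting noise in all 6 pairs (chi-square per degree of freedom 3.49 to 28.1).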

Additional observations from a re-analysis of the deposited data

Results flagged for a closer look

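The resistance difference of DLD-1 cells was tested for a difference between uracil and 5-FU, and 4978 genes passed an edgeR adjusted p of 0.01. Among the genes named, with values as the log2 change under 5-FU minus that under uracil, the difference was positive for FGF21 (3.63), RPL22L1 (2.53), ASNS (2.25), ADM2 (2.23), NUPR1 (1.98), INSIG1 (1.83), NOTUM (1.68), PDGFRB (1.32), HMGCS1 (1.12) and CXCL8 (1.09). It was negative for AC136475.3 (-1.45), COL13A1 (-1.44), SPRED3 (-1.28), IL32 (-1.23) and UCA1 (-1.16).

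The difference between DLD-1 and HCT-116 under uracil passed for 8197 genes. Of named genes called in opposite directions in the lines, NRG2 (7.06), ZNF708 (5.13), AL117378.1 (4.44), UBE2L6 (3.30), SCGB3A2 (3.29), PTGS1 (2.68), PDGFRB (2.58) and ISG20 (2.57) were higher in resistant DLD-1 and lower in resistant HCT-116 cells, the values being the log2 change in DLD-1 minus that in HCT-116. ALDH1L1 (-5.55), SLC7A7 (-5.11), NUPR1 (-3.78), IL32 (-3.45), CYP4F11 (-3.13) and HMGCS1 (-2.62) were lower in resistant DLD-1 and higher in resistant HCT-116 cells.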

How the results depend on the processing

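The counts of genes lower and higher in resistant cells (438 and 805) were 437 and 798 with scaling by library size alone, 557 and 898 without the filter on low counts, 430 and 805 by DESeq2, 435 and 786 with sensitive replicate 2 thinned to 50356155 counts, and 344 and 663 when only the 6 libraries were fitted. Leaving out each library in turn gave 394 to 489 lower and 679 to 831 higher genes, 20 to 24 lower KRAB zinc finger genes, 4179 to 6032 genes that differed between uracil and 5-FU and 7345 to 8117 between the lines. A limit of 4-fold left 181 lower, 204 higher and 12 lower KRAB zinc finger genes. With the replicate number as a block the counts were 433, 780 and 22, with 4743 genes differing between treatments and 8111 between lines. The replicate numbers gave no sign of pairing. The deviations of same-numbered libraries correlated with r of -0.10, 0.14 and -0.20 over 11346 genes, and 1 of the 3 sensitive libraries correlated best with its own number. The labels do not say whether equal numbers share a culture or day. With 3 libraries a group these correlations cannot exclude it. Of 92 called genes named by the rule, 77 were called in the same direction in every alternative run and 15 lost the call in at least 1: MT-TY, LGALS3BP, SAA1, GUCY2C, SPINK1, FGF19, FGF21, MCM4, LOX, ALDH1L2, BIRC3, NRG2, HSD11B1, ZNF792 and ZNF708; the cause was not tested. None of them changed sign.

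The changes that turned sign were all of genes not called. Leaving out each library in turn moved TYMP between -0.014 and 0.14, VIM between -0.11 and 0.51, CDKN1A between -0.66 and 0.064, TRIM28 between -0.049 and 0.093, THOC1 between -0.073 and 0.039 and COLEC12 between -0.16 and 0.15. TRIM28 gave -0.00825 without the filter and COLEC12 0.047 with the deepest library thinned. Without resistant replicate 1 called genes were fewer in ATF4 targets (higher, 1 to 0), DNA replication (lower, 1 to 0), aldehyde dehydrogenases (higher, 2 to 1), NF-kB genes (lower, 2 to 1), EGFR and MAPK genes (higher, 6 to 4), mesenchymal genes (higher, 6 to 5), steroid oxidoreductases (higher, 3 to 2) and KRAB zinc finger genes (higher, 4 to 3), and more in ATF4 targets (lower, 4 to 5), NRF2 targets (lower, 2 to 3), NF-kB genes (higher, 4 to 5), steroid oxidoreductases (lower, 5 to 6) and KRAB zinc finger genes (lower, 22 to 24); complete runs of adjacent genes were 2 in place of 6. At 3 libraries a group, genes with few counts, such as the KRAB zinc finger genes under 1 TPM, carry the widest errors, and DPYD and most short RNAs were too low to test.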
